A study of Homo sapiens with 6 samples.

Results

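DNA damage signalling and repair genes were examined in MDA-MB-231 cells with and without knockdown of YAP1. The set held 43 gene symbols, of which H2AFX and H2AX are the older and current names of the same gene, so 42 distinct genes were described, here called members. They were chosen by symbol for their role in damage signalling or repair, and all 42 passed the expression filter (at least 0.5 FPKM on average across the 6 libraries). The series lists 60612 genes, and 14770 of them passed the same filter and were tested.

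MDA-MB-231 is an established human triple-negative breast cancer (TNBC) cell line. The cells stably expressed a short hairpin RNA, either the control (Sh-NC) or the hairpin directed at YAP1 (Sh-YAP1), were collected at day 3, and gave 3 libraries in each group, numbered 1 to 3. The labels give the genotype of the Sh-NC cells as WT and that of the Sh-YAP1 cells as YAP1 knockdown, and both carry a hairpin. The sources used here do not say how many hairpins or clones stand behind a group. The methods state in general that data came from independent experiments, but nothing ties the separate libraries to separate cultures, so the p-values measure the spread between these libraries, which may be technical. No DNA-damaging agent is named for any of the 6 libraries in the sources used here, and DNA damage in the cells was not measured.

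Broken or stalled DNA is sensed by the kinases ATM, ATR and DNA-PK, which pass the signal through CHEK1 and CHEK2 to halt the cell cycle. A broken double helix is repaired by end joining, in which the Ku proteins hold the ends, or by homologous recombination, in which BRCA1 and BRCA2 take part and the sister DNA is copied. The Fanconi proteins deal with cross-links between strands, and mismatch repair corrects replication errors. YAP1 is the transcriptional coactivator of the Hippo pathway and acts with TEAD proteins.

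The knockdown was seen in every library. YAP1 was at 28.1, 26.2 and 22.9 FPKM in Sh-NC and at 3.35, 2.67 and 2.58 FPKM in Sh-YAP1, a log2 fold change of -2.79 (SE 0.12, adjusted p = 0.0018, limma with Benjamini-Hochberg adjustment). FPKM counts fragments per length of transcript and scales them to the size of the library. No counts accompany the values, and the sequencing depth is unknown. The FPKM of a library summed to between 467493 and 475116, and 13037 to 13219 genes reached 1 FPKM. Libraries of the same group correlated at 0.978 to 0.982 across the genes tested and libraries of different groups at 0.971 to 0.976. The cell line's mesenchymal markers VIM (1645 to 2303 FPKM), CD44 (114 to 147 FPKM) and AXL (190.2 to 261 FPKM) were high in all libraries, whereas SPARC, on the same marker list, was at only 1.06 to 3.85 FPKM. The means of all 4 were lower in Sh-YAP1, and AXL passed the test, at 251 to 261 FPKM in Sh-NC and 190.2 to 208 FPKM in Sh-YAP1 (log2 fold change -0.35, adjusted p = 0.0390, limma). The luminal receptors ESR1 and PGR stayed at or below 0.07 FPKM and the leukocyte marker PTPRC at or below 0.04 FPKM, and CD3E was listed at 0. Other genes on those marker lists were expressed, among them the keratins KRT8 (126 to 164 FPKM) and KRT18 (99.9 to 126 FPKM), GATA3 (4.64 to 7.34 FPKM) and CD68 (56.2 to 80.2 FPKM).

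Of the 42 members, 2 passed the test and both fell: H2AX, the histone variant that is phosphorylated around a break, and XRCC6, the Ku70 subunit of the end-binding Ku complex. The count was 4.76% of the members, against 3.38% of all genes tested, and the genes called lower made up 1.62% of all genes tested. No member was called higher by limma, and 11 members (26.2%) had an unadjusted p under 0.05, against 21.9% of all genes tested. Both shares were near those of all genes tested, and the other 40 members are not shown to be unchanged.

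The groups did not overlap for 15 members (35.7%), against 29.4% of all genes. Of these, 5 were higher in every Sh-YAP1 library (ATM, TP53BP1, NBN, MRE11 and BRCA2), against 14.6% of all genes. The other 10 were lower in every Sh-YAP1 library (H2AX, XRCC6, PARP1, GADD45A, CLSPN, RAD1, RAD54L, XRCC3, RAD51AP1 and FANCI), against 14.7% of all genes. The median log2 fold change of the members was -0.07, with 17 means higher and 25 lower in Sh-YAP1, against -0.00138 over all genes tested. The members ranged from -0.49 to 0.43. Their median absolute log2 fold change was 0.143, against 0.161 over all genes.

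**Figure D1:**
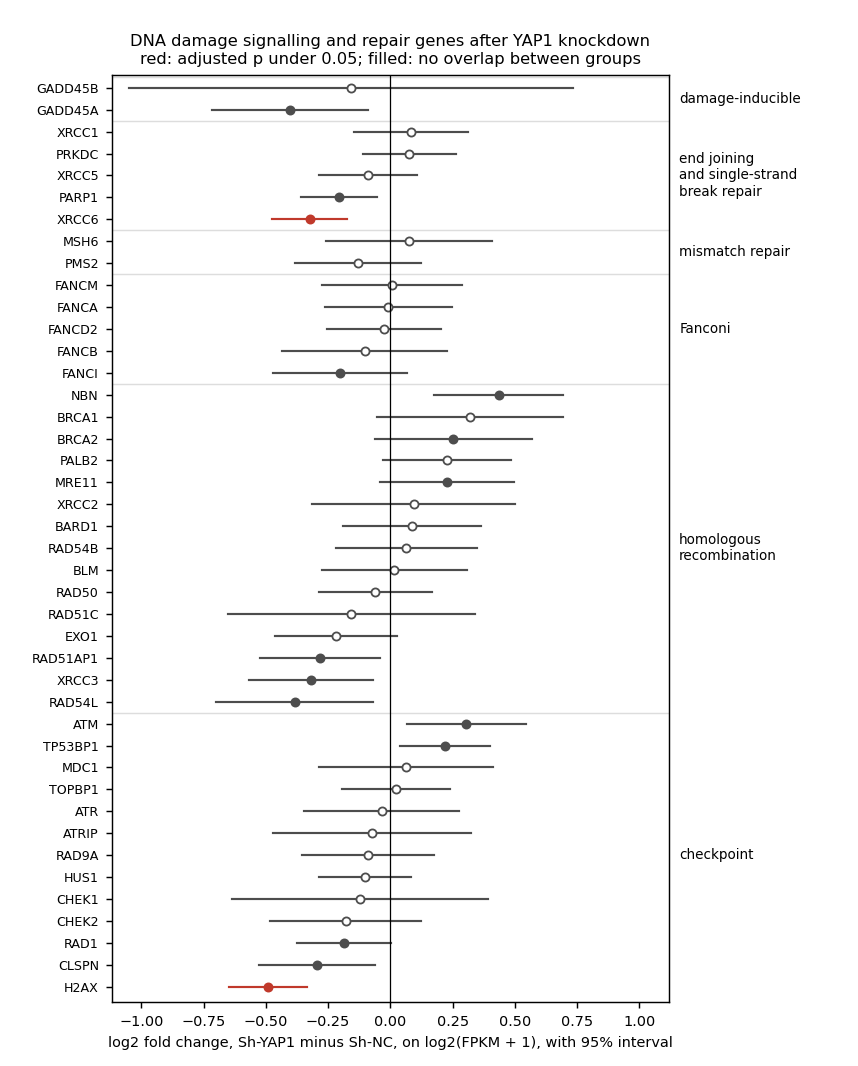
Each point is the log2 fold change of a member (Sh-YAP1 minus Sh-NC on log2(FPKM + 1), x axis) with its 95% confidence interval, grouped by role on the y axis. Red marks an adjusted p under 0.05 and filled points mark members whose groups did not overlap; only H2AX at -0.49 and XRCC6 at -0.32 are red.

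Among the 13 checkpoint members, H2AX was the one that passed the test (7.69%, against 3.38% of all genes). Of the 13, 4 had an unadjusted p under 0.05 (against 21.9% of all genes tested). H2AX measured 67.6, 69.8 and 64.2 FPKM in Sh-NC and 46.0, 48.7 and 47.6 FPKM in Sh-YAP1. All Sh-YAP1 libraries lay below all Sh-NC libraries, with means of 67.2 ± 2.82 and 47.4 ± 1.36 FPKM (SD, n = 3). The log2 fold change was -0.49 (SE 0.065, 95% confidence interval -0.65 to -0.34, adjusted p = 0.0198, limma with Benjamini-Hochberg adjustment), and the mean differed by -29.4%. Leaving out a single library ended the call in 5 of 6 cases, with adjusted p-values up to 0.0801 (limma), while the log2 fold change stayed between -0.53 and -0.47. The gene has 2 listed transcripts. The larger, with 80.0% of the gene's FPKM, was at 55.2, 57.7 and 50.5 FPKM in Sh-NC and at 38.4, 34.4 and 38.8 FPKM in Sh-YAP1. The smaller overlapped, at 12.43, 12.05 and 13.64 FPKM in Sh-NC and at 7.59, 14.26 and 8.84 FPKM in Sh-YAP1.

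The apical kinases did not pass the test. ATM, the kinase that answers double-strand breaks, was at 5.85, 4.68 and 5.12 FPKM in Sh-NC and at 6.57, 6.32 and 7.10 FPKM in Sh-YAP1, higher in all 3 Sh-YAP1 libraries (log2 fold change 0.30, SE 0.10, adjusted p = 0.149, limma). Without the row that changed most, which overlapped between the groups, the log2 fold change of ATM was 0.0040. Taking that row away removes the moving part of a gene by construction. The gene NPAT overlaps ATM on the opposite strand and had means of 3.51 and 4.82 FPKM, and whether the counting used strand is not given in the sources used here. ATR, the kinase that answers stalled forks, was at 5.78, 8.32 and 6.29 FPKM in Sh-NC and at 6.58, 6.38 and 6.65 FPKM in Sh-YAP1 (log2 fold change -0.04, 95% confidence interval -0.35 to 0.28). The Sh-YAP1 libraries of ATR all fell inside the Sh-NC range.

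TP53BP1, which shields broken ends from resection, was at 14.2, 14.3 and 16.0 FPKM in Sh-NC and at 17.6, 17.2 and 17.5 FPKM in Sh-YAP1 (log2 fold change 0.22, SE 0.075, adjusted p = 0.160, limma). CLSPN, the adaptor through which ATR reaches CHEK1, was at 11.5, 11.5 and 9.50 FPKM in Sh-NC and at 8.44, 8.42 and 9.03 FPKM in Sh-YAP1 (log2 fold change -0.30, SE 0.097, adjusted p = 0.149, limma). For both genes the groups were apart, but neither difference passed the test.

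The effector kinases overlapped between the groups. CHEK1 was at 12.5, 21.3 and 18.4 FPKM in Sh-NC and at 12.6, 16.3 and 18.3 FPKM in Sh-YAP1. CHEK2 was at 3.61, 4.87 and 4.78 FPKM in Sh-NC and at 4.21, 3.58 and 3.51 FPKM in Sh-YAP1. Their log2 fold changes were -0.12 (95% confidence interval -0.64 to 0.39) and -0.18 (-0.48 to 0.12), and the interval of CHEK1 is wide on both sides of 0. The log2 fold change of CHEK2 ranged from -0.29 without Sh-NC library 1 to -0.12 without Sh-NC library 2. RAD1, a subunit of the 9-1-1 clamp, was lower in every Sh-YAP1 library at a log2 fold change of -0.19, while its partners RAD9A and HUS1 overlapped. The remaining checkpoint members, RAD9A, HUS1, ATRIP, TOPBP1 and MDC1, had log2 fold changes from -0.10 to 0.06. The median of the 13 checkpoint members was -0.09, with 4 means higher and 9 lower, and it moved to -0.03 without Sh-NC library 2, to -0.06 without Sh-YAP1 library 1 and to -0.14 without Sh-YAP1 library 3.

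**Figure D2:**
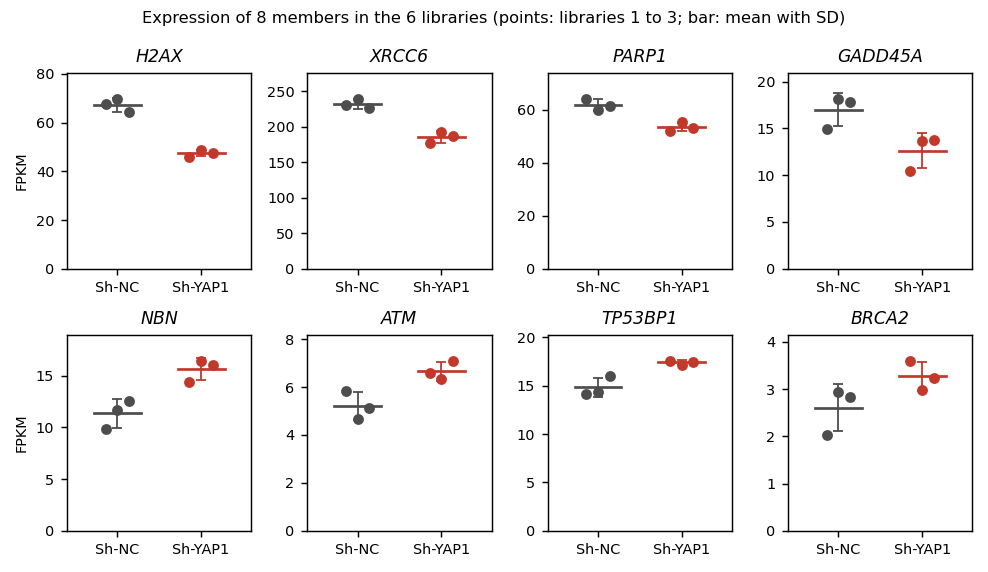
FPKM (y axes, from 0) of 8 members in the Sh-NC (grey) and Sh-YAP1 (red) libraries, with a point for each library and bars for the mean and SD (n = 3). The top row shows members lower in every Sh-YAP1 library (H2AX, XRCC6, PARP1, GADD45A) and the bottom row members higher in every Sh-YAP1 library (NBN, ATM, TP53BP1, BRCA2); of these 8, H2AX and XRCC6 passed the test.

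In end joining and repair of single-strand breaks, XRCC6 fell while the other 4 members did not pass the test. The call was 1 of 5 members, against 3.38% of all genes tested. For 2 of the 5 (XRCC6 and PARP1, both lower) the libraries did not overlap, against 29.4% of all genes. XRCC6 was at 231, 239.8 and 227 FPKM in Sh-NC and at 177, 193 and 187 FPKM in Sh-YAP1, with means of 232 ± 6.59 and 186 ± 8.07 FPKM (SD, n = 3). The groups did not overlap, and the log2 fold change was -0.32 (SE 0.063, 95% confidence interval -0.48 to -0.17, adjusted p = 0.0497, limma with Benjamini-Hochberg adjustment). This value lies just under the threshold of 0.05, and leaving out any single library took it to between 0.0927 and 0.150 (adjusted p, limma). With quantile normalization the log2 fold change was -0.22 (adjusted p = 0.0653, limma).

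XRCC5, the Ku80 partner of XRCC6, was at 196, 169 and 177 FPKM in Sh-NC and at 181, 164 and 164 FPKM in Sh-YAP1. Its groups overlapped, with a log2 fold change of -0.09 (95% confidence interval -0.28 to 0.11), or -0.03 without Sh-NC library 1 and -0.02 with quantile normalization. PRKDC, the catalytic subunit of DNA-PK that Ku recruits, was at 30.8, 29.03 and 29.2 FPKM in Sh-NC and at 33.6, 31.5 and 29.01 FPKM in Sh-YAP1 (log2 fold change 0.08, 95% confidence interval -0.11 to 0.26). The log2 fold change of PRKDC was 0.03 without Sh-YAP1 library 1 and 0.13 without Sh-YAP1 library 3. PARP1, which senses single-strand breaks, was at 64.2, 59.8 and 61.6 FPKM in Sh-NC and at 52.1, 55.3 and 53.1 FPKM in Sh-YAP1. All 3 Sh-YAP1 libraries were lower (log2 fold change -0.21, SE 0.064, adjusted p = 0.132, limma). XRCC1, the scaffold for single-strand break repair, overlapped at a log2 fold change of 0.08, or 0.00095 without Sh-NC library 3 and 0.14 without Sh-NC library 2.

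Promoter sequences are shown for H2AX and XRCC6, the members that passed the test, and for ATM and TP53BP1, which were higher in every Sh-YAP1 library. They are the 250 bases before the gene's farthest upstream start in RefSeq on GRCh38.p14, read along the gene's strand. The processing notes of the submitters name hg19. Capitals mark CCAAT boxes (CCAAT or its complement ATTGG) and the cell cycle homology element (TTTGAA or its complement TTCAAA).
H2AX, chr11:119095466-119095715, minus strand: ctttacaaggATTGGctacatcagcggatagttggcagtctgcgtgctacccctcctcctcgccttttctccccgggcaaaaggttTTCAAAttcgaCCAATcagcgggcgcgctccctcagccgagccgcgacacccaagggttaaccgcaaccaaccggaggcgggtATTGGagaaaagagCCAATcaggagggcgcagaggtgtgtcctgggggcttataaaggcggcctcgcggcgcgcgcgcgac
XRCC6, chr22:41621045-41621294, plus strand: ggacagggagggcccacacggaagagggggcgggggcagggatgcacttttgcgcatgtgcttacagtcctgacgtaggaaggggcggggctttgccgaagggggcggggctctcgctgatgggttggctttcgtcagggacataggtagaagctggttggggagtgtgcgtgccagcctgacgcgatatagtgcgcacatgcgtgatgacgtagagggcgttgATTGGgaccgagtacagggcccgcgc
ATM, chr11:108222817-108223066, plus strand: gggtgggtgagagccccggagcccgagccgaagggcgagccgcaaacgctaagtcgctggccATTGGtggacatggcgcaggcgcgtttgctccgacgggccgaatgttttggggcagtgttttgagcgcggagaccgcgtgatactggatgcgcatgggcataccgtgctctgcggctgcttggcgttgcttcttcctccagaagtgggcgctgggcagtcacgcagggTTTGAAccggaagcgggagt
TP53BP1, chr15:43510641-43510890, minus strand: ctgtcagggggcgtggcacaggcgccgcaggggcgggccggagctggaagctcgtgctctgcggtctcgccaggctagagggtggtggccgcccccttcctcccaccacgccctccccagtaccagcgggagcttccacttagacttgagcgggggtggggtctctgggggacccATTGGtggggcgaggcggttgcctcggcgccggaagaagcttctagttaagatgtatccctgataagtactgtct

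H2AX held 4 CCAAT boxes in this window, and XRCC6, ATM and TP53BP1 held 1 each. The cell cycle homology element appeared once in H2AX and once in ATM. The TEAD core CATTCC, searched on both strands, was in 0 of these 4 windows. Windows were found for 35 of the 42 members, and both strands were searched. A CCAAT box was in 22 of them (62.9%), against 33.0% of 27305 genes in the table. The wider set was not limited to expressed genes, as the members were, so the shares come from unlike sets. CATTCC was in 5 members (14.3%, against 12.0% of all), TTTGAA in 4 (11.4%, against 13.6%), and at least 1 of the E2F words TTTCCCGC, TTTCGCGC, TTTGCCGC and TTTGGCGC in 2 (5.71%, against 2.78%). The CCAAT box was thus present in members that were lower and in members that were higher in Sh-YAP1. A match is a run of letters and does not show binding.

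None of the 15 homologous recombination members passed the test by limma, and 4 had an unadjusted p under 0.05, against 21.9% of all genes tested. Without overlap, 3 were higher and 3 lower in Sh-YAP1, together 40.0% of the group against 29.4% of all genes. NBN, the subunit of the MRE11-RAD50-NBN complex that brings ATM to breaks, was at 9.83, 11.7 and 12.5 FPKM in Sh-NC and at 14.4, 16.5 and 16.1 FPKM in Sh-YAP1. It had the largest positive difference of the members, with all Sh-YAP1 libraries above all Sh-NC libraries (log2 fold change 0.43, SE 0.11, 95% confidence interval 0.18 to 0.69, adjusted p = 0.0845, limma). MRE11, the nuclease of the complex, was at 3.37, 4.65 and 4.12 FPKM in Sh-NC and at 4.87, 4.85 and 4.90 FPKM in Sh-YAP1 (log2 fold change 0.23, adjusted p = 0.295, limma), or 0.13 without Sh-NC library 1. RAD50, the third subunit, overlapped at a log2 fold change of -0.06. Both MRE11 and NBN overlap expressed genes on the opposite strand, ANKRD49 (means of 2.82 and 3.58 FPKM) and DECR1 (16.7 and 19.5 FPKM).

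The BRCA genes were higher on average in Sh-YAP1 and did not pass the test. BRCA1, which promotes end resection, was at 6.1, 4.6 and 5.0 FPKM in Sh-NC and at 8.42, 6.29 and 5.75 FPKM in Sh-YAP1, where the highest Sh-NC library exceeded the lowest Sh-YAP1 library (log2 fold change 0.32, SE 0.16, adjusted p = 0.289, limma). Without Sh-YAP1 library 1 the log2 fold change was 0.18. BRCA1 overlaps NBR2 on the opposite strand, which had means of 1.96 and 3.33 FPKM. BRCA2, a mediator of strand exchange, was at 2.03, 2.94 and 2.84 FPKM in Sh-NC and at 3.60, 2.99 and 3.23 FPKM in Sh-YAP1. Its groups nearly met, at 2.94 and 2.99 FPKM (log2 fold change 0.25, SE 0.13, adjusted p = 0.314, limma). It was 0.13 without Sh-NC library 1 and 0.0034 without the row that changed most. PALB2, the link between BRCA1 and BRCA2, overlapped at a log2 fold change of 0.23, and BARD1, the partner of BRCA1, at 0.09, or 0.00014 without Sh-YAP1 library 3.

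RAD54L, XRCC3 and RAD51AP1, which act in strand exchange, were lower in every Sh-YAP1 library without passing the test. RAD54L, the motor protein that drives strand exchange, was at 6.87, 4.92 and 5.76 FPKM in Sh-NC and at 3.99, 4.77 and 3.92 FPKM in Sh-YAP1 (log2 fold change -0.38, SE 0.13, adjusted p = 0.160, limma). XRCC3, which helps to assemble the recombination filament, was at 14.7, 16.1 and 14.1 FPKM in Sh-NC and at 10.4, 11.8 and 13.2 FPKM in Sh-YAP1 (log2 fold change -0.32, SE 0.10, adjusted p = 0.146, limma). RAD51AP1, which stimulates strand pairing, was at 17.6, 22.0 and 20.6 FPKM in Sh-NC and at 17.0, 15.3 and 16.5 FPKM in Sh-YAP1 (log2 fold change -0.28, SE 0.10, adjusted p = 0.172, limma). The remaining members of this role, EXO1, RAD51C, BLM, RAD54B and XRCC2, overlapped at log2 fold changes from -0.22 to 0.09, and the median of the 15 was 0.06. That median was 0.02 without Sh-YAP1 library 3, 0.14 without Sh-NC library 3 and 0.0085 with the GC trend removed. Its sign changed only without the row that changed most in each gene (-0.06), which takes away the moving part of a gene by construction.

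In the Fanconi and mismatch repair groups no member passed the test by limma (against 3.38% of all genes), and none had an unadjusted p under 0.05 (against 21.9%). FANCD2, the protein that is ubiquitinated at cross-links, was at 10.1, 9.02 and 10.6 FPKM in Sh-NC and at 9.13, 10.6 and 9.45 FPKM in Sh-YAP1 (log2 fold change -0.02, 95% confidence interval -0.25 to 0.20). FANCI, its partner, was at 38.5, 50.03 and 39.3 FPKM in Sh-NC and at 36.3, 38.2 and 35.3 FPKM in Sh-YAP1, lower in every Sh-YAP1 library by a small gap (log2 fold change -0.20, SE 0.11, adjusted p = 0.342, limma). Without Sh-NC library 2, where a single row was at 18.8 FPKM, the log2 fold change was -0.085. FANCA, FANCB and FANCM overlapped at log2 fold changes from -0.10 to 0.01.

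MSH6, which recognises mismatches, was at 37.8, 29.1 and 31.7 FPKM in Sh-NC and at 32.5, 40.7 and 30.9 FPKM in Sh-YAP1 (log2 fold change 0.07, 95% confidence interval -0.26 to 0.41). PMS2 overlapped at a log2 fold change of -0.13, or -0.057 without Sh-NC library 2 and -0.22 without Sh-NC library 3. The value of PMS2 is uncertain because near-identical copies were listed as expressed, among them PMS2P1 (7.45 and 6.09 FPKM) and PMS2CL (4.39 and 4.12 FPKM).

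Of the damage-inducible members, GADD45A, a stress-induced protein that binds cell cycle regulators, was at 14.9, 18.2 and 17.8 FPKM in Sh-NC and at 10.5, 13.7 and 13.7 FPKM in Sh-YAP1. All Sh-YAP1 libraries were lower (log2 fold change -0.40, SE 0.13, 95% confidence interval -0.72 to -0.09, adjusted p = 0.145, limma). GADD45B was at 12.4, 12.8 and 25.5 FPKM in Sh-NC and at 16.7, 8.54 and 19.8 FPKM in Sh-YAP1. On the log2 scale its standard error of 0.37 was the largest of the members, and its interval reached from -1.05 to 0.73 on the log2 scale.

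The other genes of the repair pathways were counted in the same way. Of 123 further repair genes, 3 passed the test (2.44%, against 3.38% of all genes) and 31 did not overlap (25.2%, against 29.4%), 12 higher and 19 lower. Their median log2 fold change was -0.02. RMI2, a subunit of the BLM dissolvasome, fell from 12.5, 11.0 and 11.7 FPKM to 6.62, 6.22 and 6.93 FPKM (log2 fold change -0.74, SE 0.083, adjusted p = 0.0127, limma). FANCC, a subunit of the Fanconi core complex, fell from 5.44, 5.91 and 6.0 FPKM to 4.13, 3.93 and 3.56 FPKM (log2 fold change -0.48, SE 0.088, adjusted p = 0.0426, limma). The change of RMI2 was larger than that of any member. Of 20 expressed p53 target genes, 1 was called, against 3.38% of all genes. It was RRM2B, a ribonucleotide reductase subunit, at 5.51, 6.20 and 6.29 FPKM in Sh-NC and 3.88, 3.74 and 4.11 FPKM in Sh-YAP1 (log2 fold change -0.51, adjusted p = 0.0349, limma).

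Many repair genes are expressed with the cell cycle, so cycle genes were counted beside the members. None of 25 S phase genes passed the test by limma, 3 had an unadjusted p under 0.05 (against 21.9% of all genes), 24.0% did not overlap (against 29.4%), and their median log2 fold change was -0.06. Of 20 mitotic genes, 4 passed the test (20%, against 3.38% of all genes) and all 4 fell. They were CDC20 (log2 fold change -0.55, adjusted p = 0.0245), PLK1 (-0.46, adjusted p = 0.0350), AURKB (-0.42, adjusted p = 0.0268) and CCNB1 (-0.41, adjusted p = 0.0385), all by limma. In the mitotic list 9 genes were lower and 2 higher without overlap (55.0% together, against 29.4% of all genes), and the summed FPKM was 1459 to 1482 in Sh-NC and 1244 to 1309 in Sh-YAP1. The part of the mitotic genes' difference in the lower levels of H2AX and XRCC6 was not tested. In these bulk samples fewer cells of a cell cycle phase and less RNA per cell cannot be told apart.

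The summed level of the members was lower in every Sh-YAP1 library, but the sum is weighted to the abundant members. The FPKM of the 42 members summed to 986, 983 and 975 in Sh-NC and to 881, 884 and 877 in Sh-YAP1, a difference of means of -10.3%. Without XRCC6 and H2AX, the sums were 688, 674 and 684 in Sh-NC and 658, 642 and 643 in Sh-YAP1, a difference of -5.03%. The means of XRCC5 and PARP1, also abundant, differed by -11.05 and -8.377 FPKM. Of the 42 members, 17 had higher means in Sh-YAP1 and 25 lower. Genes of like level were not summed for comparison. XRCC6 and XRCC5 were the most abundant members in Sh-NC, at 232 ± 6.59 and 181 ± 14.04 FPKM (SD, n = 3). H2AX at 67.2 ± 2.82 and PARP1 at 61.9 ± 2.22 FPKM came next, and their libraries overlapped. A further 17 members had Sh-NC means from 10 to 50 FPKM and 21 were under 10 FPKM, with ATM at 5.22, BRCA2 at 2.60 and FANCB at 1.46 FPKM near the end. FPKM is per length of transcript, but the row estimates, overlapping genes and near-identical copies limit how closely these levels can be compared between genes.

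Partner proteins of a complex were compared as ratios of FPKM within a library, over 9 pairs that were chosen after the values were seen. XRCC6 over XRCC5 was 1.18, 1.42 and 1.28 in Sh-NC and 0.98, 1.17 and 1.14 in Sh-YAP1. NBN over RAD50 was 1.51, 1.97 and 2.10 in Sh-NC and 2.43, 3.13 and 2.52 in Sh-YAP1. Only these 2 of the 9 pairs did not overlap, and for XRCC6 over XRCC5 the groups nearly met, at 1.176 and 1.174. Each gave the smallest p that 3 libraries against 3 allow, 0.1 in the exact two-sided permutation test, or 0.45 after Benjamini-Hochberg adjustment over the 9 pairs, so the design could not reach a p of 0.05. The ratios of FANCI to FANCD2, PALB2 to BRCA2, BRCA1 to BARD1, ATRIP to ATR, MRE11 to RAD50, and RAD1 and RAD9A to HUS1 overlapped.

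**Figure D3:**
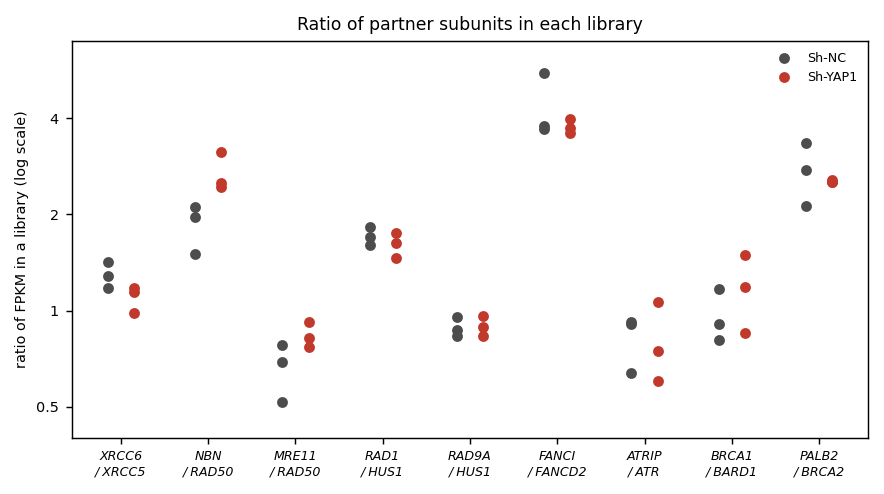
Ratio of the FPKM of partner genes in each library (y axis, log scale) for 9 pairs on the x axis, Sh-NC in grey and Sh-YAP1 in red. The Sh-YAP1 libraries lie below the Sh-NC libraries for XRCC6 over XRCC5 and above them for NBN over RAD50, and the other 7 pairs overlap.

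The direction of the members went with the length of their transcripts, a pattern noticed after the values were seen. Across the 42 members, the log2 fold change correlated with the length of the gene's longest transcript at a Spearman coefficient of 0.658, against 0.137 over the 123 other repair genes and 0.148 over 14682 genes tested with a length. The genes of a library share its preparation and are not independent replicates, so no p is given. The coefficient of the members lay between 0.539 and 0.701 when each library was left out in turn, and at 0.558 after the trend with length over all genes had been taken off each library. GC content (-0.465) and mean FPKM (-0.335) also correlated with the log2 fold change of the members, and length with GC content (-0.409).

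Of the 21 members with a longest transcript under 4654 bases, 18 had a lower mean in Sh-YAP1. Without overlap, 7 of the 21 were lower (33.3%, against 16.3% of all genes of such length) and 0 higher (against 12.2%). Of the 21 members above that length, 14 had a higher mean. Without overlap, 5 were higher (23.8%, against 20.9% of all genes of such length) and 3 lower (14.3%, against 10.9%), shares near those of all long genes. The median log2 fold changes were -0.16 and 0.06, against -0.02 and 0.05 for all genes divided at the same length. With the length trend removed, they were -0.13 for the shorter and 0.0052 for the longer members. H2AX (1614 bases), GADD45A (1496 bases) and XRCC6 (2709 bases) were among the shorter members, but GADD45B (2007 bases), RAD9A (2119 bases), CHEK2 (2560 bases) and RAD51C (2591 bases), also shorter than XRCC6, overlapped. ATM (13147 bases), BRCA2 (11986 bases) and TP53BP1 (10384 bases) stood at the long end, beside PRKDC (13509 bases), which overlapped.

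**Figure D4:**
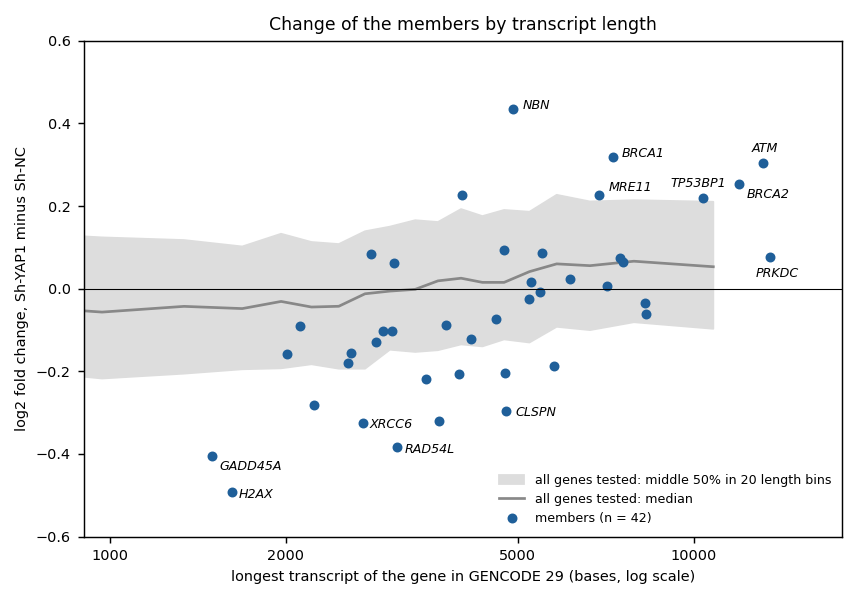
Log2 fold change of the members (y axis, Sh-YAP1 minus Sh-NC, blue points, n = 42) against the longest transcript of the gene (x axis, bases, log scale), with the median and the middle 50% of all genes tested in 20 length bins in grey. The short members H2AX, GADD45A and XRCC6 lie at the bottom left and the long members ATM, BRCA2 and TP53BP1 at the upper right, while the grey median rises from below to just above 0.

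A gene's value is the sum of its transcript rows, and the rows were less steady than the sums. Members had 2 to 34 rows, the leading row held 20.8% to 100% of a gene, and in 22 members it held at least 50%. Without the row that changed most in each gene, the groups did not overlap for 4 of the 42 members, against 8.65% of all genes tested. For NBN, the leading row was at 3.82, 10.9 and 8.91 FPKM in Sh-NC and at 11.4, 13.9 and 14.6 FPKM in Sh-YAP1, without overlap, and the rest of the gene was lower on average (log2 fold change -0.24 without that row). For PARP1, whose leading row held 95.5% of the gene, that row was at 61.7, 57.6 and 59.1 FPKM in Sh-NC and at 48.6, 52.99 and 50.7 FPKM in Sh-YAP1. The rows of XRCC6 varied from library to library. Its leading row was at 105, 129.5 and 92.5 FPKM in Sh-NC and at 93.0, 78.4 and 102 FPKM in Sh-YAP1, which overlap, and another row was at 66.7 FPKM in Sh-NC library 2 and listed at 0 in the other 5 libraries. Without that row, the log2 fold change of XRCC6 was -0.17 and did not pass the test. The loss of the call cannot be read, because the row was picked for its change and 0 members were called in that setting.

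A row of ATR was listed at 0 in all 3 Sh-NC libraries and at 2.24, 4.12 and 2.59 FPKM in Sh-YAP1, while the sum of the gene did not differ beyond its spread. Of 306 member rows with a mean of at least 0.1 FPKM, 2 (0.654%) were listed at 0 throughout 1 group and above 0 throughout the other, against 0.686% of the 77655 such rows of all genes. The second was a row of RAD51C at 0.35, 0.03 and 0.29 FPKM in Sh-NC and 0 in Sh-YAP1. Genes that overlap a member are a further limit, since reads of genes on opposite strands cannot be told apart without strand. Beside ATM, NBN, MRE11 and BRCA1, this holds for CHEK2, RAD1, RAD9A, TP53BP1, RAD54L, XRCC1, XRCC3, FANCA, FANCI and MSH6. CHEK1 and ATRIP overlap STT3A and TREX1 on the same strand, which strand would not separate, whereas H2AX and XRCC6 overlap no other gene with a mean of at least 0.5 FPKM. An exact 0 in an estimated FPKM can be a failed estimate, and the files do not name the transcripts.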

How the data were processed

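RNA-sequencing of 6 MDA-MB-231 libraries (3 Sh-NC, 3 Sh-YAP1, day 3) was analysed. The authors deposited FPKM values for 229420 transcript rows with gene identifiers and 2 decimals; their processing notes name HISAT2 2.0, Bowtie 0.12.2 and hg19, and the quantification tool, strand setting and filters are not given in the sources used here. The data series that the paper's methods cite for this experiment is a different one, so libraries were matched by cell line, hairpin and replicate number. The values come without counts and low values were not whole multiples of a read, so depth is unknown and errors come from the spread between libraries.

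Rows sharing a gene identifier were summed to genes, and symbols came from a table of Ensembl identifiers (42020 of 60612 matched). Genes averaging at least 0.5 FPKM were transformed to log2(FPKM + 1), on which fold changes of low genes are understated, and compared with limma 3.58.1 in R 4.3.3 (mean-variance trend, condition as the only factor, Benjamini-Hochberg adjustment over 14770 genes, threshold 0.05). Single ratios used an exact two-sided permutation test with a smallest p of 0.1. Code was tested on simulated data. Lengths and GC content came from GENCODE 29, found for 99.4% of the genes tested, and promoters from RefSeq.

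The members and lists were chosen with earlier results of these data known. Values in every library are given for members with an adjusted p under 0.05 (limma), members without overlap and an absolute log2 fold change of at least 0.2, and ATM, ATR, CHEK1, CHEK2, BRCA1, BRCA2, FANCD2, MSH6, PRKDC, GADD45A and GADD45B; XRCC5 and the transcript rows were added after their values were seen. From other lists, called genes averaging at least 1 FPKM are named, at most 5 a list, and 1 such gene is not reported here. Alternatives covered the pseudocount (0.1 and 0.01), quantile normalization, median centring, no trend, no filter, a filter at 1 FPKM, each library left out, a replicate block, rows of at least 0.1 FPKM, and gene sums without the row that changed most; removal of a length or a GC trend was added after seeing the data.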

Additional observations from a re-analysis of the deposited data

How the results depend on the processing

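The knockdown of YAP1 kept its direction and passed the test under all alternatives run for it (the row that changed most was left in), with log2 fold changes from -3.17 to -2.73. Of the 2 members called, H2AX alone was called with quantile normalization, without the mean-variance trend and without the filter (1 member each). None was called by limma with the replicate block (0) or without the row that changed most (0), which was picked for its change. Leaving out each library gave 0 to 1 members called, 78 to 171 genes called (45 to 108 higher and 30 to 63 lower), against 499 (259 higher and 240 lower) with all libraries, and a median of the members from -0.0655 to -0.0358. Without the filter 232 genes were called (120 higher and 112 lower). Same-numbered libraries correlated at -0.028, 0.062 and 0.004 in their deviations from the group means, and not every library correlated best with its own number, so they share only a number. With the replicate block 1 gene was called by limma (0 higher and 1 lower), while 2779 genes and 8 members had an unadjusted p under 0.05, against 3241 genes and 11 members without it. The cause of these losses was not tested, beyond the fewer libraries or degrees of freedom that both alternatives leave.

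The median of the members was -0.0803 and -0.0809 with pseudocounts of 0.1 and 0.01, -0.0838 with median centring, -0.0934 with the length trend removed and -0.0288 without the row that changed most, where 4 instead of 15 members had groups that did not overlap (all genes 8.65% instead of 29.4%). Over 755 values of single members, 677 kept direction and side of the threshold, 18 lost the call (all H2AX or XRCC6) and 60 changed sign. Members that changed sign had small differences in most cases, with ranges over the left-out libraries of ATR (-0.129 to 0.1), ATRIP (-0.245 to 0.0797), BLM (-0.0891 to 0.127), CHEK1 (-0.331 to 0.0318), FANCA (-0.096 to 0.0576), FANCD2 (-0.0858 to 0.0211), FANCM (-0.0622 to 0.0822), GADD45B (-0.384 to 0.178), MDC1 (-0.0703 to 0.149), MSH6 (-0.0429 to 0.178), RAD50 (-0.117 to 0.00332), RAD51C (-0.338 to 0.0161), RAD54B (-0.0303 to 0.167), TOPBP1 (-0.0565 to 0.0867) and XRCC2 (-0.0321 to 0.281). With the GC trend removed the sign changed for BLM (-0.0237), FANCA (0.0183), FANCM (-0.0482) and TOPBP1 (-0.00727), and with the length trend removed for BLM (-0.0218), FANCM (-0.0522) and TOPBP1 (-0.0302). Median centring turned BLM (-0.000299) and FANCM (-0.0103), quantile normalization FANCM (-0.0206), and rows of at least 0.1 FPKM FANCA (0.00584).

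Taking away the row that changed most removes the moving part of a gene by construction. It turned BARD1 (-0.077), BLM (-0.477), CHEK2 (0.0445), CLSPN (0.142), EXO1 (0.0752), FANCA (0.102), FANCB (0.0977), FANCD2 (0.317), FANCI (0.0172), FANCM (-0.169), GADD45B (0.159), MDC1 (-0.048), MRE11 (-0.0348), NBN (-0.238), PALB2 (-0.547), PARP1 (0.114), PMS2 (0.0881), PRKDC (-0.185), RAD50 (0.0279), RAD54B (-0.00442), RAD9A (0.00394), TP53BP1 (-0.429), XRCC1 (-0.159) and XRCC5 (0.187), and left no value for XRCC2. The depth behind the FPKM values is unknown, so the counting error of low members such as BRCA2 and FANCB could not be given.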
